A study of Mus musculus with 12 samples.

Results

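Urea cycle and amino acid breakdown genes were followed in mouse livers labelled as lacking the circadian repressors REV-ERBalpha and REV-ERBbeta, as given REV-ERBalpha back, or as wild type. The 48 genes were fixed by name, as enzymes and carriers of the urea cycle and of transamination, aromatic, histidine, branched-chain, lysine, proline and sulfur amino acid breakdown. All 48 were found by gene symbol among the 48537 genes of the deposited table, and all 48 passed the filter for testing, among 17957 tested genes. The rule names genes by function and uses no measured value, but the list was chosen with earlier results of these data known.

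RNA-seq was made from whole livers taken at zeitgeber time 10 (ZT10, that is 10 h after lights on) in 3 groups of 4 livers. Re-expression livers carried the genotype REV-ERBalpha re-expressing, with DKO and REV-ERBalpha-WT in their titles. Livers labelled DKO had the genotype REV-ERBs double-knockout, with DKO and YFP in their titles. Control livers were wildtype, with YFP in their titles. Columns named for YFP and WT were read as the re-expression livers and columns named for YFP and Cre as the livers labelled DKO. That reading was inferred from column names and sample titles, the table does not say it in words, and every group value rests on it. The age, sex and strain of the mice, the promoter or vector behind Cre and YFP and the part of the REV-ERB genes that was deleted are not stated in the labels or file headers, and neither the share of hepatocytes affected nor the timing of the loss is known.

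The liver clears the nitrogen of amino acids that are burned for energy or turned into glucose. Transaminases move amino groups onto glutamate and aspartate, glutamate dehydrogenase and glutaminase free ammonia, and the urea cycle of periportal hepatocytes joins ammonia and aspartate nitrogen into urea. Separate chains of enzymes take apart the carbon skeletons, many of them found mainly in liver, and several are known to vary with feeding, glucagon, glucocorticoids and time of day. REV-ERBalpha (Nr1d1) and REV-ERBbeta (Nr1d2) are nuclear receptors that repress genes through the short element AGGTCA, often preceded by an A/T-rich stretch, which they share with the ROR activators.

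Promoters are shown for the members with the smallest p between livers labelled DKO and control livers, Cbs, Kynu, Got1 and Amdhd1, because their rise is the base of the results below. RefSeq promoters on GRCm38.p6 ran from 250 bases before to 50 bases after the gene start, and the table held 39 of the 48 members, without Kynu. Sequences are written 5′ to 3′ in the direction of the gene, in lower case, with a matched motif in capitals: the E-box CACGTG in Cbs and the receptor element AGGTCA in Got1. All 3 genes lie on the minus strand.
Cbs, chr17:31637156-31637455: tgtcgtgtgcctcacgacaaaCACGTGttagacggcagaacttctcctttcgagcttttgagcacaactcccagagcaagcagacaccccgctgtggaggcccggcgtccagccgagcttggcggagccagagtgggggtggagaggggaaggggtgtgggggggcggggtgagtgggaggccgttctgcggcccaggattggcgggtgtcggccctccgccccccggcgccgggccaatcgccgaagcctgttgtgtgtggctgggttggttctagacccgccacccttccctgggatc
Got1, chr19:43524556-43524855: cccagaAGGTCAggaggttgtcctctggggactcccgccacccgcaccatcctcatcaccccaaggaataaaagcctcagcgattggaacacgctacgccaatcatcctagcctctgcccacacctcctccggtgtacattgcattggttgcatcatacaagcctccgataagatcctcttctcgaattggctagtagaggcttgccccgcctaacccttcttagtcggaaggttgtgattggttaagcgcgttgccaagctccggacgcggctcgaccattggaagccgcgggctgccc
Amdhd1, chr10:93539984-93540283: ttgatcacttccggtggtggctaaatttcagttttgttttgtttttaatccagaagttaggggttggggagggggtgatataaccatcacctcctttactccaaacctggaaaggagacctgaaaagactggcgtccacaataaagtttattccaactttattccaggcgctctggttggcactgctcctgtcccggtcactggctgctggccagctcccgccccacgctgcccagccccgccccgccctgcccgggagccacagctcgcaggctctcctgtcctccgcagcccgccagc

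The E-box in the Cbs window began 229 bases before the start, and the receptor element in the Got1 window began 244 bases before it. No motif of those searched matched in the Amdhd1 window. The 39 members held 44 promoters, and for each motif the count of members equals the count of their promoters with a match. Over both strands, the receptor element AGGTCA was in 14 of the 39 members, or 14 of the 44 promoters. It was in 16.3% of the 32851 promoters of the table. Its longer form ANTAGGTCA, which contains AGGTCA, was in 1 member, Aass, and in 0.661% of all promoters. The E-box CACGTG was in 5 members, Ass1, Cbs, Mccc2, Slc25a13 and Slc25a15, and in 7.15% of all promoters. The D-box TTATGNAA was in 1 member, Otc, and in 3.38% of all promoters, while TGACGTCA, the cAMP element, was in 0 members and 1.79% of all promoters. A match describes letters in a window and is not a measured binding site.

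The REV-ERB genes themselves were checked first. Nr1d1 stood at 171, 203, 174 and 217 TPM in re-expression livers, 78.7, 84.7, 91.7 and 74.8 TPM in livers labelled DKO, and 64.1, 69.7, 64.9 and 76.2 TPM in control livers. TPM is a level of RNA per gene length, scaled so that every library has an equal total. On log2(TPM + 1), re-expression livers exceeded livers labelled DKO by 1.20 for Nr1d1 and control livers by 1.46 (both exact permutation p = 0.0286, two-sided, the smallest of 70 assignments). Between livers labelled DKO and control livers it differed by 0.26 (exact permutation p = 0.0571). Nr1d2 stood at 119, 92, 94.8 and 84.4 TPM in re-expression livers, 99.6, 94.5, 84 and 83.7 TPM in livers labelled DKO and 111, 108, 82.3 and 85.3 TPM in control livers, a difference of -0.09 between livers labelled DKO and control livers (exact permutation p = 0.571). A lower RNA level of either gene in the livers labelled DKO was not found. A level summed over a whole gene, which for Nr1d1 also overlaps Thra on the opposite strand, does not check a deletion of part of it, and the group is called by its label.

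Depth ran from 5621667 to 6906221 reads per library, and each member held between 87 reads (the lowest library for Bckdk) and 54228 reads (the highest for Cps1). Hepatocyte markers (Alb, Apoa1, Apob, Ttr, Serpina1c and Fgb) summed to 40755 to 45008 TPM in re-expression livers, 40375 to 43147 TPM in livers labelled DKO and 39349 to 43628 TPM in control livers, so the livers carried the markers of their tissue. Of these 6 genes, Ttr rose in livers labelled DKO, by 0.32 on the log2 scale (adjusted p = 0.0250). Control livers 1 and 2 stood apart from control livers 3 and 4 (median-ratio scaling 1.07 and 1.06 in the first pair, 0.943 and 0.959 in the other), and re-expression liver 1 was the low liver of its group for several members. Calls that change when these livers are left out are given with the strength of the calls below.

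The members spanned a wide range of levels. Cps1 was the highest, at 3551 TPM in re-expression livers, 3913 TPM in livers labelled DKO and 3133 TPM in control livers, and Mat1a, Ass1, Hpd and Cdo1 followed it. Bckdk, the kinase that inhibits branched-chain ketoacid breakdown, was the lowest at 14.0 TPM in re-expression livers, 12.5 TPM in livers labelled DKO and 12.7 TPM in control livers. Summed over the 48 genes, level came to 26800 ± 868 TPM in re-expression livers, 28720 ± 1513 TPM in livers labelled DKO and 23986 ± 1056 TPM in control livers (SD, n = 4 each). These sums were 2.68% of the library in re-expression livers, 2.87% in livers labelled DKO and 2.40% in control livers. By liver, the sums were 25654, 27753, 26999 and 26794 TPM in re-expression livers, 29121, 30178, 26597 and 28986 TPM in livers labelled DKO and 22669.8, 23778, 25199 and 24299 TPM in control livers. On the deposited TPM scale, both other groups lay wholly above the controls, and the DKO and re-expression livers overlapped. This separation rests on the scaling. Divided by the median-ratio factors, the sum of control liver 3 (factor 0.943) passes those of DKO liver 3 (1.00) and re-expression liver 1 (1.06).

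**Figure D1:**
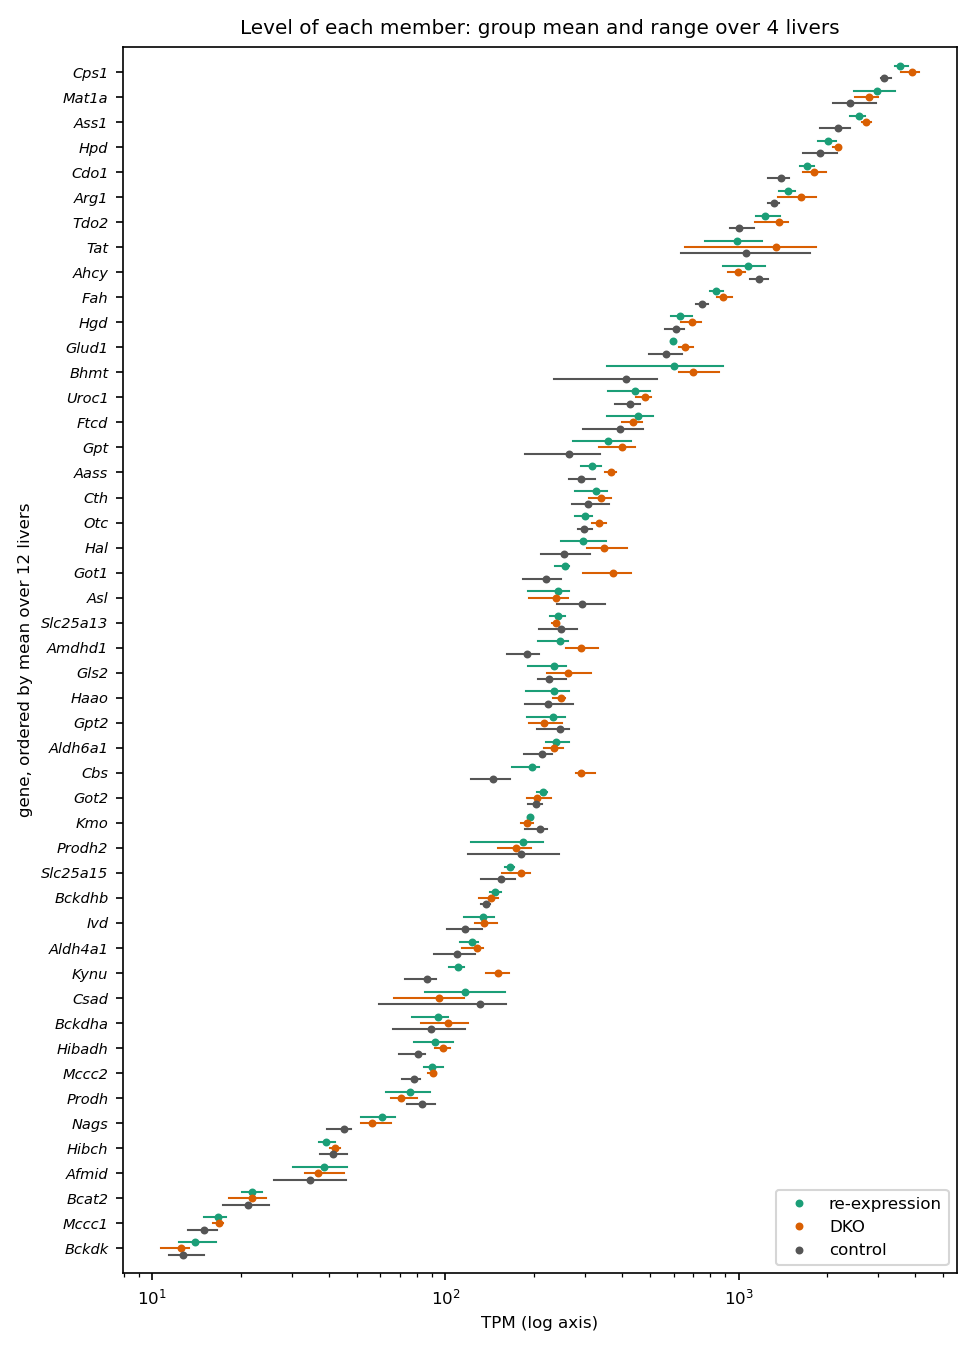
Level in TPM (log axis) of each of the 48 genes, ordered by the mean over all 12 livers; points are group means and lines the range over 4 livers, for re-expression, DKO and control livers. Levels ran from 12.5 TPM for Bckdk in DKO livers to 3913 TPM for Cps1 in the same group, and Cbs, Kynu and Got1 show DKO livers to the right of the others.

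Livers labelled DKO were set against control livers to ask which of these genes move when the REV-ERBs are lost. In the livers labelled DKO 10 of the 48 genes rose, and 0 fell: Cbs, Kynu, Got1, Amdhd1, Tdo2, Cdo1, Aass, Ass1, Cps1 and Fah. Rose and fell are used of genes with an adjusted p under 0.05, from limma's moderated test with Benjamini-Hochberg adjustment over all 17957 tested genes. The background was 2.99% of tested genes called higher and 2.34% called lower. Among the 7090 genes at least as abundant as the lowest member (13.1 TPM), it was 5.28% and 3.79%. The median change of the 48 was 0.21 on the log2 scale, against 0.00 over all tested genes and 0.03 over the abundant ones. Changes were positive for 39 members and negative for 9, and ran from -0.39 for Csad to 1.00 for Cbs. On the deposited TPM scale, groups did not overlap for 14 members that were higher and 1 that was lower, Ahcy. The background over all tested genes was 6.13% and 5.4%.

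On mm10 with the GENCODE annotation, Cbs spans chr17:31608894-31637238 on the minus strand, Kynu chr2:43555329-43682715 on the plus strand and Got1 chr19:43499752-43524605 on the minus strand. Levels are over all reads of a gene, so exons were not told apart. Within single livers, the median member stood 0.08, 0.21, 0.12 and 0.15 above the control mean (log2) in re-expression livers 1 to 4, and 0.23, 0.24, 0.14 and 0.14 above it in livers labelled DKO. Control livers ranged from -0.12 in liver 1 to 0.07 in liver 3. On the deposited TPM scale, each liver labelled DKO and each re-expression liver thus had a median member above that of every control liver. The margin was small, with 0.08 in re-expression liver 1 and 0.07 in control liver 3. Their median-ratio factors were 1.06 and 0.943, and dividing by them reverses the order of these livers. Markers of other cell types also differed between groups. Stellate cell and fibroblast markers summed to 234 to 295 TPM in re-expression livers, 284 to 311 TPM in livers labelled DKO and 175 to 239 TPM in control livers. All 8 of their genes had positive changes in livers labelled DKO, and 4 rose (background 2.99%). Sinusoidal endothelial markers summed to 168.5 to 250.2 TPM in re-expression livers, 250.3 to 309.6 TPM in livers labelled DKO and 209.97 to 237 TPM in control livers, with 0 of 8 called. All 8 had positive changes in livers labelled DKO against control livers, with unadjusted limma p under 0.05 for 5 (background 18.4%). In re-expression livers against livers labelled DKO all 8 changes were negative, with unadjusted limma p under 0.05 for 4 (background 6.19%). Kupffer cell markers summed to 302 to 913 TPM in re-expression livers, 356 to 426 TPM in livers labelled DKO and 348 to 899.8 TPM in control livers, and all 9 had negative changes in livers labelled DKO with 0 called. Cholangiocyte markers summed to 79.4 to 106 TPM in re-expression livers, 76.7 to 86.1 TPM in livers labelled DKO and 74.5 to 105 TPM in control livers. Of their 4 tested genes Sox9 was called, higher than in control livers by 1.33 in re-expression livers (adjusted p = 0.00771) and by 1.70 in livers labelled DKO (adjusted p = 0.000780) on the log2 scale. In whole livers, fewer cells of a type and less RNA per cell cannot be told apart, and the part of these cells in the results was not tested.

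**Figure D2:**
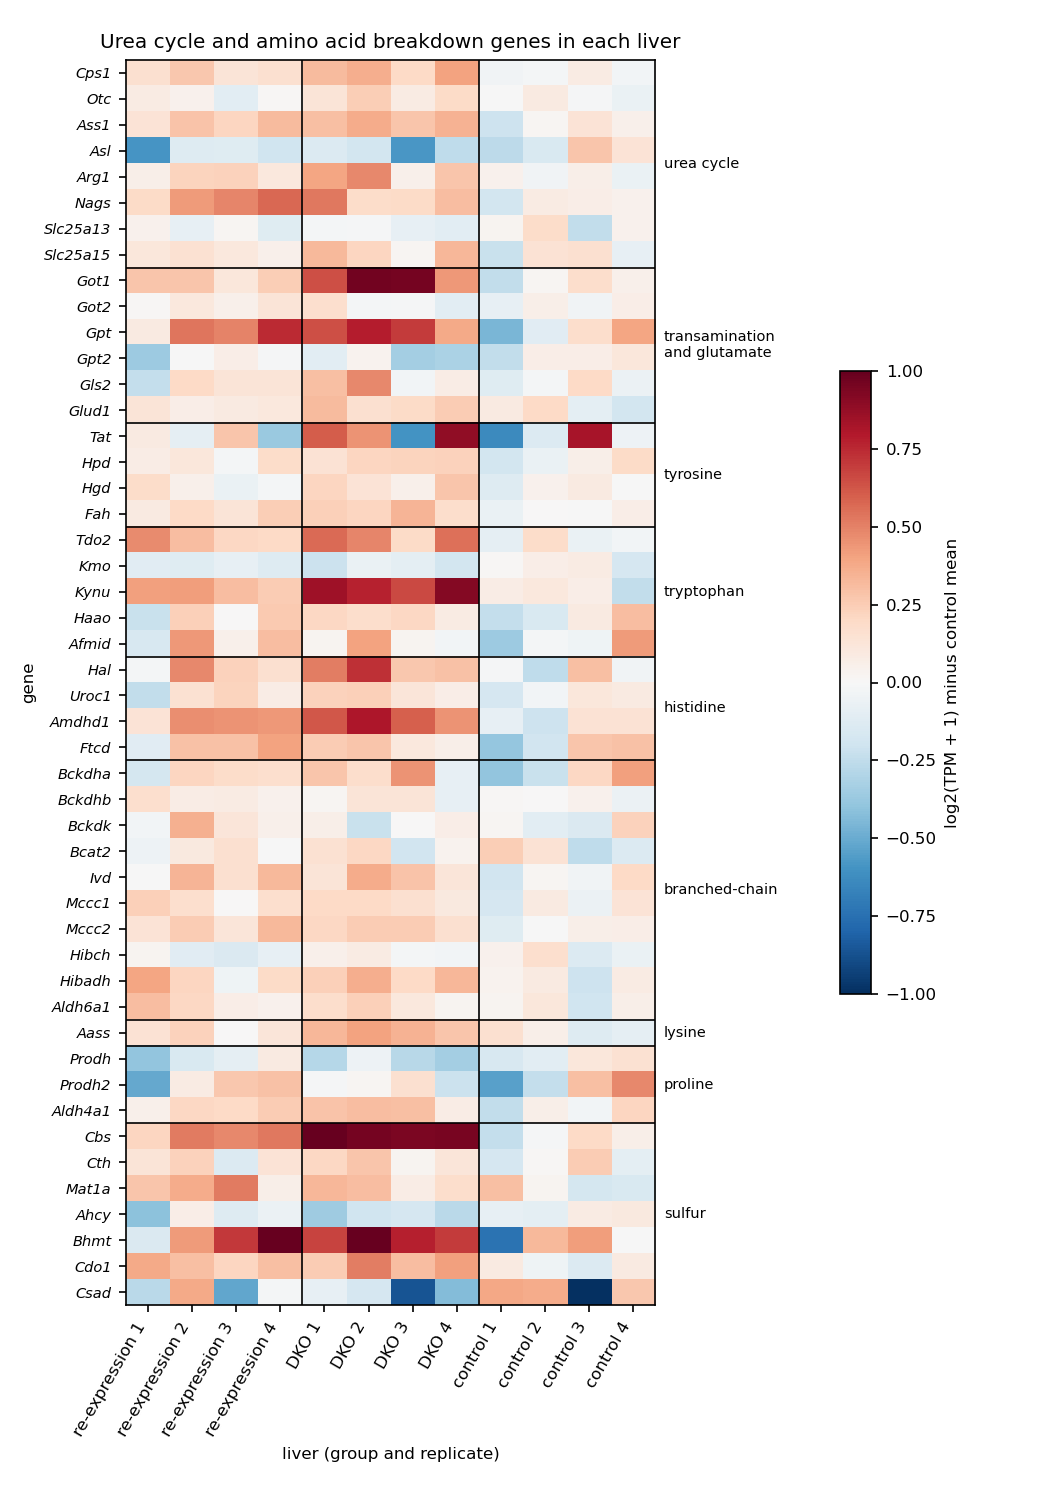
Change of each gene in each liver as log2(TPM + 1) minus the control mean (colour, from -1 to 1), with genes grouped by pathway and livers ordered re-expression, DKO, control. Values past the ends of the scale take its end colours; Cbs is dark red in all 4 DKO livers, and Asl, Ahcy and Csad lie below the control mean (blue) in all 4.

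Of the 8 urea cycle genes, Ass1 and Cps1 rose in the livers labelled DKO, and the median change over the 8 was 0.26. In re-expression livers Cps1, the mitochondrial enzyme that fixes ammonia as carbamoyl phosphate, had 3496, 3775, 3429 and 3504 TPM, in livers labelled DKO 3907, 4028, 3588 and 4129 TPM and in control livers 3056, 3087, 3312 and 3077 TPM. Cps1 was higher in livers labelled DKO, with a log2 change of 0.32 ± 0.06 (SE) and an adjusted p of 0.0156, and the livers labelled DKO did not overlap with the controls. The levels of Ass1, the enzyme that joins citrulline to aspartate, were 2397, 2653, 2524 and 2708 TPM in re-expression livers, 2682, 2824, 2646 and 2768 TPM in livers labelled DKO and 1891, 2205, 2394 and 2257 TPM in control livers. Against control livers, livers labelled DKO differed by 0.32 ± 0.08 on the log2 scale for Ass1 (SE, adjusted p = 0.0316), and control liver 1 was the lowest of the 12. Both calls were lost in some alternatives: Cps1 was called in 19 of 24 and Ass1 in 14. Over these alternatives the log2 change ran from 0.29 to 0.36 for Cps1 and from 0.23 to 0.42 for Ass1. For Cps1 the adjusted p was 0.0971 at its highest, and for Ass1 it was 0.135.

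The other urea cycle genes did not pass the test. Arg1, which cleaves arginine into urea and ornithine, stood at 1373, 1538, 1552 and 1422 TPM in re-expression livers, 1732, 1839, 1367 and 1597 TPM in livers labelled DKO and 1363, 1291, 1372 and 1259 TPM in control livers. On the log2 scale Arg1 differed by 0.30 ± 0.09 between livers labelled DKO and control livers (SE, adjusted p = 0.0837), with livers labelled DKO from inside to well above the control range. In re-expression livers Nags, the maker of the activator that Cps1 needs, had 51.7, 60.7, 63.7 and 67.4 TPM, in livers labelled DKO 65.2, 51.4, 51.7 and 55.9 TPM and in control livers 39.5, 47.6, 47.1 and 46.5 TPM. The log2 change between livers labelled DKO and control livers was 0.30 ± 0.10 (SE, adjusted p = 0.139), although every liver labelled DKO was above every control liver. The levels of Asl, which releases arginine and fumarate, were 192, 264, 265 and 251 TPM in re-expression livers, 263, 254, 193 and 242 TPM in livers labelled DKO and 240.5, 259.6, 349 and 317 TPM in control livers. Livers labelled DKO and control livers differed by -0.29 ± 0.15 on the log2 scale (SE, adjusted p = 0.333), with control livers 3 and 4 high. Otc, which makes citrulline, stood at 315, 307, 277 and 301 TPM in re-expression livers, 327, 353, 316 and 341 TPM in livers labelled DKO and 297, 316, 295 and 284 TPM in control livers. The highest level was in a liver labelled DKO, and the log2 difference from control livers was 0.16 (adjusted p = 0.174). Slc25a15, the ornithine carrier, differed by 0.22 (adjusted p = 0.246) and Slc25a13, the aspartate and glutamate carrier citrin, by -0.05 (adjusted p = 0.802). Summed over the 8 genes, RNA came to 8604 ± 313 TPM in re-expression livers, 9324 ± 537 TPM in livers labelled DKO and 7679 ± 361 TPM in control livers (SD, n = 4 each).

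Among the 6 transamination and glutamate genes, Got1 rose. In re-expression livers Got1, the cytosolic aspartate aminotransferase, had 265, 265, 237 and 259 TPM, in livers labelled DKO 343, 429, 425 and 295 TPM and in control livers 184, 222, 247 and 227 TPM. Against control livers, livers labelled DKO differed by 0.75 ± 0.12 on the log2 scale for Got1 (SE, adjusted p = 0.00494), a 1.70-fold difference of means, and livers labelled DKO did not overlap with either other group. It was called in all 24 alternatives, with log2 changes from 0.63 to 0.86. Its mitochondrial partner Got2 averaged 214 ± 7.71 TPM in re-expression livers, 205 ± 16.6 TPM in livers labelled DKO and 204 ± 10.5 TPM in control livers (SD, n = 4 each) and differed by 0.01 (95% interval -0.14 to 0.16, adjusted p = 0.970). The difference between the 2 enzymes' changes was not tested. The levels of Gpt, the cytosolic alanine aminotransferase, were 273, 373, 362 and 431 TPM in re-expression livers, 402, 443, 418 and 334 TPM in livers labelled DKO and 187, 237, 291 and 338 TPM in control livers. On the log2 scale Gpt differed by 0.63 ± 0.18 between livers labelled DKO and control livers (SE, adjusted p = 0.0774), and control livers ran from 187 to 338 TPM, into the DKO range. Gpt2, its mitochondrial form, differed by -0.18 (adjusted p = 0.470), and Gls2, the liver glutaminase, by 0.21 (adjusted p = 0.434). Glud1, glutamate dehydrogenase, stood at 613, 587, 596 and 602 TPM in re-expression livers, 699, 627, 639 and 669.6 TPM in livers labelled DKO and 597, 642, 523 and 494 TPM in control livers. Control livers 3 and 4 were lowest for Glud1, and the log2 difference between livers labelled DKO and control livers was 0.23 (adjusted p = 0.141). Gpt was called in 3 alternatives and Glud1 in 2.

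Tryptophan and tyrosine enzymes included 3 that rose. In re-expression livers Kynu, the kynureninase that cleaves 3-hydroxykynurenine, had 115, 116, 107 and 103 TPM, in livers labelled DKO 156, 148, 137 and 164 TPM and in control livers 91.2, 92.8, 90.5 and 72.6 TPM. The log2 change between livers labelled DKO and control livers was 0.80 ± 0.09 (SE, adjusted p = 0.000382), a 1.75-fold difference of means, and each of the 3 groups was apart from the others. The levels of Tdo2, the enzyme of the entry step, which opens the tryptophan ring, were 1385, 1236, 1153 and 1143 TPM in re-expression livers, 1475, 1399, 1140.3 and 1465 TPM in livers labelled DKO and 938, 1131, 952 and 981 TPM in control livers. Tdo2 was higher in livers labelled DKO, with a log2 change of 0.45 ± 0.10 (SE) and an adjusted p of 0.0241. DKO liver 3 was the low one of its group. Kmo, between these steps, averaged 194 ± 3.0 TPM in re-expression livers, 190.0 ± 9.0 TPM in livers labelled DKO and 209.9 ± 16 TPM in control livers (SD, n = 4 each), a change of -0.14 between livers labelled DKO and controls (adjusted p = 0.270). Haao, which opens the next ring, differed by 0.17 (adjusted p = 0.552) and Afmid, which hydrolyses formylkynurenine, by 0.11 (adjusted p = 0.811).

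Of 4 tyrosine genes, Fah alone passed the test. Fah, the last enzyme of the pathway, whose loss causes tyrosinaemia in people, stood at 797, 859.8, 818 and 888 TPM in re-expression livers, 884, 869.6, 947 and 844 TPM in livers labelled DKO and 713, 751, 748 and 785 TPM in control livers. Against control livers, livers labelled DKO differed by 0.24 ± 0.06 on the log2 scale for Fah (SE, adjusted p = 0.0380). Its change was small and it was called in 9 of 24 alternatives, the fewest of the 10. In re-expression livers Tat, the entry enzyme, known as a glucocorticoid target, had 1054, 928, 1198 and 767 TPM, in livers labelled DKO 1507, 1353, 654 and 1833 TPM and in control livers 635, 901, 1749 and 956 TPM. On the log2 scale Tat differed by 0.34 ± 0.34 between livers labelled DKO and control livers (SE, adjusted p = 0.669), and its coefficient of variation within groups, 35.5%, was the highest of the 48 genes. Hpd differed by 0.20 (adjusted p = 0.212) and Hgd, the homogentisate oxidase, by 0.17 (adjusted p = 0.256).

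Among 4 histidine genes, Amdhd1 rose. The levels of Amdhd1, the imidazolonepropionase of the third step, were 208, 261, 257 and 254 TPM in re-expression livers, 289.9, 331, 285 and 257 TPM in livers labelled DKO and 178, 163, 209 and 208 TPM in control livers. The log2 change between livers labelled DKO and control livers was 0.62 ± 0.11 (SE, adjusted p = 0.00718), a 1.54-fold difference of means, and the livers labelled DKO did not overlap with the controls. It lost its call in 1 alternative, with only control livers 3 and 4 (adjusted p = 0.0647). Hal, histidine ammonia-lyase, the entry step, stood at 248, 352, 296 and 281 TPM in re-expression livers, 359, 417, 304 and 308 TPM in livers labelled DKO and 249, 211, 311 and 245 TPM in control livers. Livers labelled DKO and control livers differed by 0.45 ± 0.14 on the log2 scale (SE, adjusted p = 0.105). Hal and Amdhd1 lie on opposite strands of chromosome 10, with 4034 bases between them (GENCODE release 21 for mouse, mm10). Uroc1, the second enzyme, differed by 0.16 (adjusted p = 0.442) and Ftcd, which passes on the one-carbon unit, by 0.17 (adjusted p = 0.629). All 4 changes were positive, with a median of 0.31.

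Branched-chain genes were called in 0 of 10 cases, with a median change of 0.15 and 9 positive. With no adjustment, p was under 0.05 for 3 of the 10, where the background over all tested genes was 18.4%: Hibadh at 0.28, Mccc2 at 0.22 and Ivd at 0.23 (adjusted p = 0.136, 0.0965 and 0.272). In re-expression livers Mccc2, a subunit of methylcrotonyl-CoA carboxylase, had 85.5, 92.9, 84.8 and 97.8 TPM, in livers labelled DKO 89.8, 92.8, 93.2 and 87.3 TPM and in control livers 71.4, 77.8, 80.9 and 81.7 TPM. Its groups did not overlap between livers labelled DKO and controls, and the spread within groups was small. The partner subunit Mccc1 differed by 0.16. Bckdha and Bckdhb, the E1 subunits of the ketoacid dehydrogenase, differed by 0.20 and 0.05, and Bckdk, the kinase that turns that complex off, by -0.02. Bcat2, the mitochondrial transaminase, differed by 0.05, Hibch by 0.02 and Aldh6a1 by 0.13. Their adjusted p ran from 0.372 for Mccc1 to 0.948 for Bckdk.

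The lysine gene rose, and the proline genes were not called. The levels of Aass, the bifunctional enzyme that starts lysine breakdown, were 319, 339.5, 289.7 and 314 TPM in re-expression livers, 363, 383, 368 and 349.6 TPM in livers labelled DKO and 324, 300.1, 264 and 272 TPM in control livers. Against control livers, livers labelled DKO differed by 0.34 ± 0.08 on the log2 scale for Aass (SE, adjusted p = 0.0237), and livers labelled DKO lay above both other groups. Proline genes were called in 0 of 3 cases: Prodh, proline dehydrogenase, differed by -0.24 (adjusted p = 0.289), and Aldh4a1, the next enzyme, by 0.24 (adjusted p = 0.203). Prodh2, the hydroxyproline dehydrogenase, stood at 122, 185, 211 and 215 TPM in re-expression livers, 173, 177, 195 and 151 TPM in livers labelled DKO and 119.8, 148, 215 and 244 TPM in control livers. The control livers alone spanned that range, with livers 1 and 2 low, and the change was -0.01 (adjusted p = 0.992).

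Sulfur amino acids gave the largest change of the 48. In re-expression livers Cbs, cystathionine beta-synthase, which commits homocysteine to cysteine, had 168, 208, 202 and 209 TPM, in livers labelled DKO 324, 282, 278 and 281 TPM and in control livers 122, 143, 166 and 150.3 TPM. On the log2 scale Cbs differed by 1.00 ± 0.10 between livers labelled DKO and control livers (SE, adjusted p = 0.000193), a 2.0-fold difference of means. The 3 groups did not overlap on the deposited TPM scale. Divided by the median-ratio factors, re-expression and control livers overlap for Cbs. Over the 24 alternatives the log2 change of Cbs between livers labelled DKO and control livers ran from 0.87 to 1.13, and the call held in each. The levels of Cdo1, which oxidises cysteine, were 1804, 1713, 1617 and 1711 TPM in re-expression livers, 1661, 1985, 1721 and 1844 TPM in livers labelled DKO and 1482, 1349, 1263 and 1479 TPM in control livers. The log2 change between livers labelled DKO and control livers was 0.37 ± 0.08 (SE, adjusted p = 0.0171). Both other groups lay above every control liver for Cdo1, and its call held in 19 of 24 alternatives.

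The other sulfur genes were not called. Bhmt, which remethylates homocysteine with betaine, stood at 356, 529, 641 and 887 TPM in re-expression livers, 627, 859, 673 and 641 TPM in livers labelled DKO and 235, 494, 526 and 391 TPM in control livers. Livers labelled DKO and control livers differed by 0.82 ± 0.29 on the log2 scale (SE, adjusted p = 0.145), with groups apart but control liver 1 far below the other controls. Bhmt has a close copy, Bhmt2, 17759 bases away on chromosome 13, and a gene model on the opposite strand, so its reads may be split or shared. In re-expression livers Ahcy, which makes homocysteine, had 882, 1231, 1074 and 1127 TPM, in livers labelled DKO 920.5, 1023, 1048 and 977 TPM and in control livers 1113, 1098, 1247 and 1255 TPM. On the deposited TPM scale, every liver labelled DKO was below every control liver for Ahcy, with a log2 difference of -0.25 (adjusted p = 0.199). Divided by the median-ratio factors, these groups overlap for Ahcy. The levels of Csad, which makes the precursor of taurine, were 101, 159, 85.1 and 120.4 TPM in re-expression livers, 115, 109, 66.8 and 90.4 TPM in livers labelled DKO and 161, 158, 59.4 and 148 TPM in control livers. Against control livers, livers labelled DKO differed by -0.39 ± 0.31 on the log2 scale for Csad (SE, adjusted p = 0.572), and control liver 3 was the lowest of the 12. Mat1a, which makes S-adenosylmethionine, differed by 0.22 (adjusted p = 0.383) and Cth, the enzyme after Cbs, by 0.16 (adjusted p = 0.479).

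**Figure D3:**
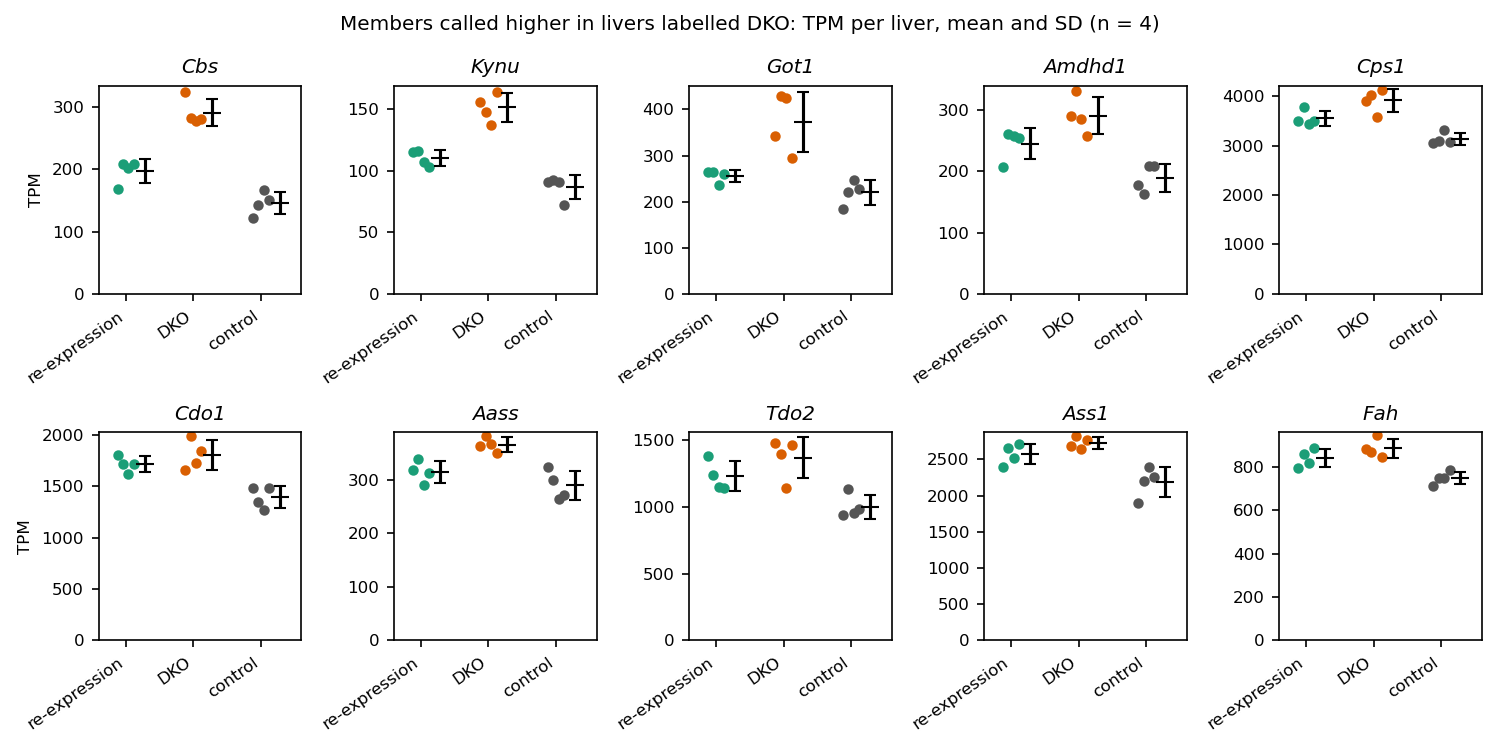
TPM in each liver (points; re-expression, DKO, control from left to right) with mean and SD (n = 4 each) for the 10 genes that rose in livers labelled DKO. DKO points lie highest in Cbs, Kynu and Got1, with Cbs at 278 to 324 TPM in DKO livers and 122 to 166 TPM in control livers, while in Cdo1, Ass1 and Fah the re-expression and DKO points overlap.

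How firmly the 10 calls stood differed. Cbs, Kynu and Got1 were called in all 24 alternatives, and the other 7 lost the call in at least 1. With the 8 livers of the comparison alone, 4 members were called, and with only control livers 3 and 4, 5 were. Over all tested genes, 537 were called higher in the main fit. Fewer were with the 8 livers alone or with any 1 liver left out, as given in the section on processing. A lost call in these settings is thus not by itself a trait of the members. For only control livers 3 and 4 the number of all genes called higher is not given. Both pairs of control livers ended the calls of Tdo2, Cdo1 and Fah: with only livers 1 and 2 the adjusted p was 0.0990 for Tdo2, 0.0514 for Cdo1 and 0.0544 for Fah, and with only livers 3 and 4 it was 0.0600 for Tdo2, 0.0609 for Cdo1 and 0.162 for Fah. Aass was not called with only livers 1 and 2 (adjusted p = 0.0973). Cps1, Ass1 and Amdhd1 were not called with only livers 3 and 4 (adjusted p = 0.0971, 0.135 and 0.0647). Gpt and Hpd were called with only livers 1 and 2 (adjusted p = 0.0226 and 0.0385), and Glud1 with only livers 3 and 4 (adjusted p = 0.0143). Leaving out DKO liver 1 left 6 called, DKO liver 2 left 4 and DKO liver 4 left 5. Single livers ended these calls: the adjusted p of Cps1 was 0.0507 without DKO liver 2 and 0.0535 without DKO liver 4, and that of Cdo1 was 0.0510 and 0.0532 without the same livers. For Ass1 it ran from 0.0582 to 0.0882 when any DKO liver or control liver 1 or 2 was left out. For Tdo2 it ran from 0.0510 to 0.0759 without DKO liver 1, 2 or 4 or control liver 1, 3 or 4, and for Aass from 0.0550 to 0.0693 without DKO liver 1, 2 or 3 or control liver 3 or 4. For Fah it ran from 0.0508 to 0.102 without re-expression liver 2 or 3, any DKO liver or control liver 1, 2 or 3. Calls were gained by Arg1 without DKO liver 3 (adjusted p = 0.0187) and by Gpt without control liver 4 (adjusted p = 0.0358). Processing choices ended calls too. Cps1, Ass1 and Fah were not called with no filter on mean TPM, and Ass1 and Fah were not with median-ratio scaling. Fah also lost its call with the replicate number as a block. Median-ratio scaling gained a call for Glud1, and voom on recovered reads gained calls for Arg1, Gpt and Hal. A median of 0.28 over the 48 was obtained with only control livers 1 and 2 and 0.15 with only control livers 3 and 4.

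In the authors' deposited table, the first numbered comparison followed this one closely (r = 0.936 over genes), and listed 14 members higher and 0 lower at an adjusted p under 0.05. They were 9 of the 10 above, without Ass1, and Arg1, Gpt, Glud1, Hal and Hibadh. Over all 16343 genes with a value in the authors' deposited table, the background was 4.5% higher and 4.69% lower.

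**Figure D4:**
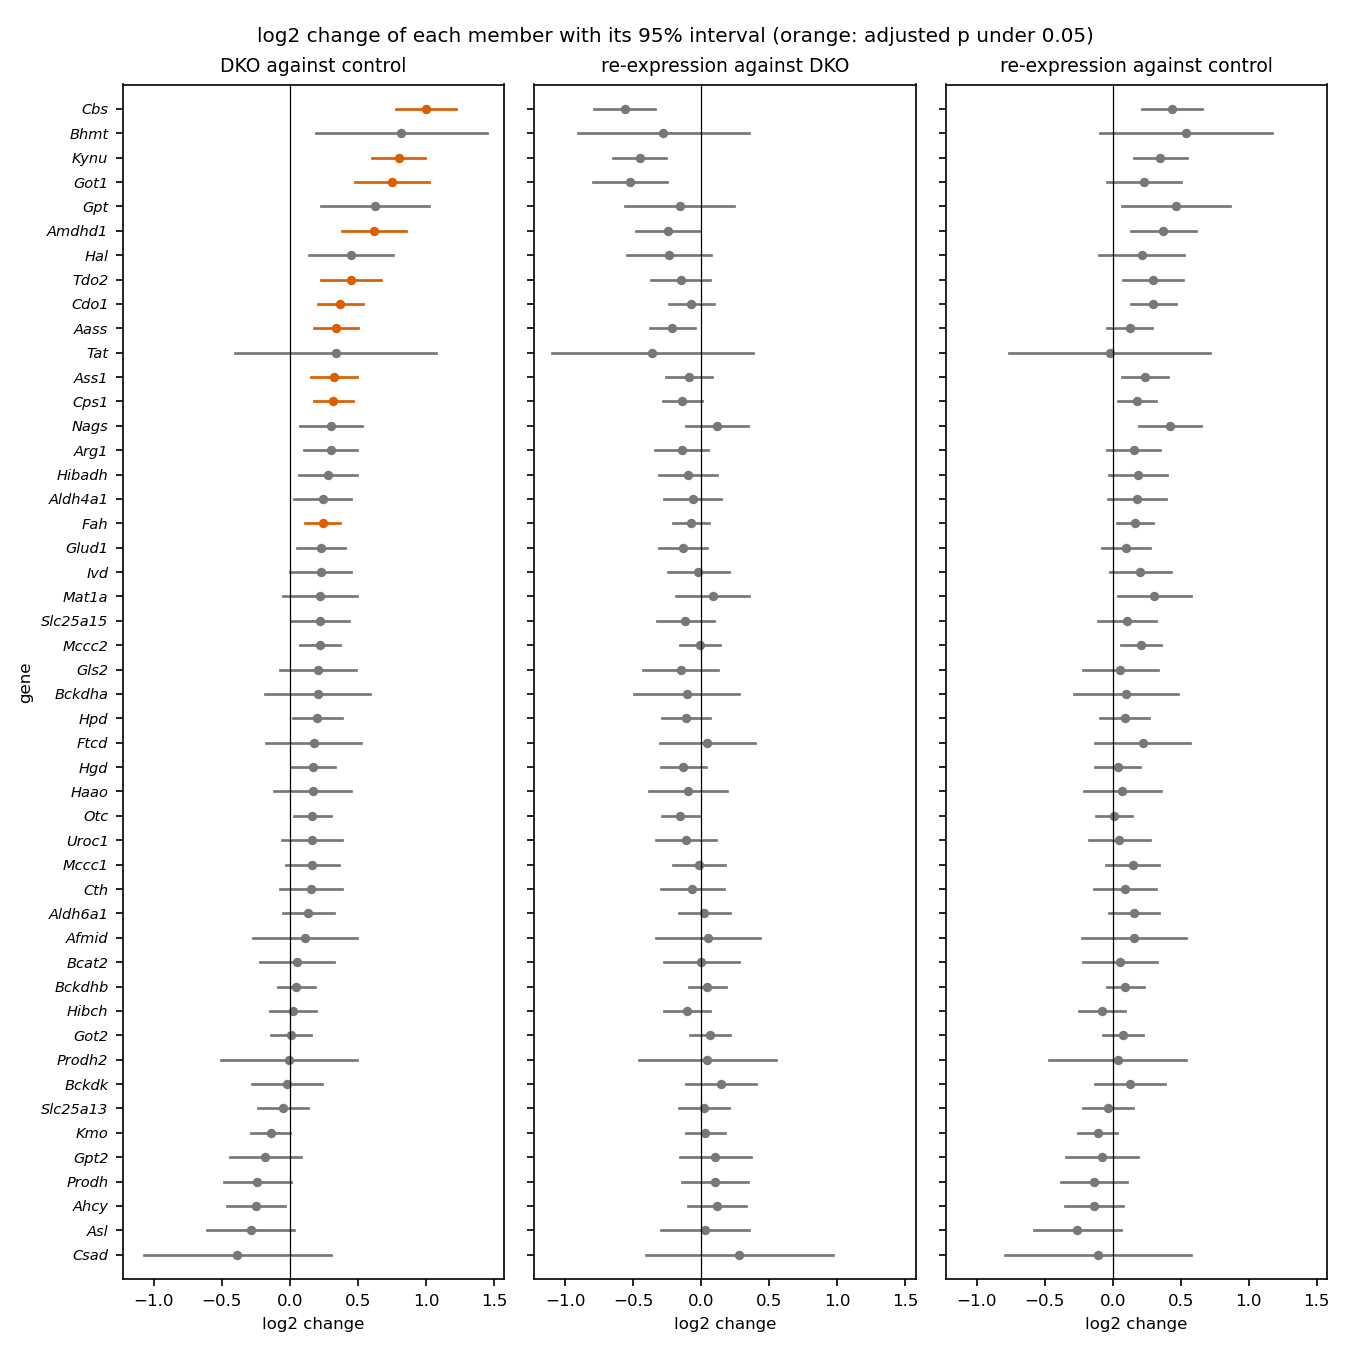
log2 change on log2(TPM + 1) of each of the 48 genes with its 95% interval, unadjusted, for DKO against control, re-expression against DKO and re-expression against control; orange marks an adjusted p under 0.05. Cbs, Kynu and Got1 are to the right in the first panel and to the left in the second, and no gene is orange in that panel or the last.

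Re-expression livers were set against livers labelled DKO to ask which genes move back when REV-ERBalpha returns. None of the 48 genes passed the test in either direction, where the background was 0.0278% called higher and 0.0446% called lower over all tested genes. With no adjustment, 6 members had p under 0.05 (background 6.19%), and limma with quality weights or voom on recovered reads called 2, Cbs and Kynu. The median change was -0.08, against 0.01 over all tested genes, with 17 positive and 31 negative. In 6 members the re-expression livers lay wholly below the livers labelled DKO (background 2.16%): Otc, Got1, Glud1, Kynu, Aass and Cbs. In 0 members they lay wholly above (background 2.09%). The margin was very small for Otc, with 315.5 TPM in the highest re-expression liver and 315.9 TPM in the lowest liver labelled DKO.

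Cbs had the lowest change, -0.56 ± 0.10 (SE; 95% interval -0.79 to -0.34, adjusted p = 0.102). Got1 followed at -0.52 ± 0.12 (SE; 95% interval -0.79 to -0.25, adjusted p = 0.236), and Kynu at -0.45 ± 0.09 (SE; 95% interval -0.65 to -0.26, adjusted p = 0.129). For Cps1 the change was -0.14 (95% interval -0.28 to 0.00), for Cdo1 -0.07 (-0.24 to 0.09) and for Fah -0.08 (-0.21 to 0.05). Those intervals reach 0 or pass it, which does not show that the groups are alike. Csad had the highest change, 0.28, with an interval of -0.41 to 0.97. In the authors' deposited table, the second numbered comparison followed this one (r = 0.916 over genes) and listed 3 members lower and 0 higher: Cbs at -0.57 (adjusted p = 0.0117), Got1 at -0.55 (adjusted p = 0.0397) and Kynu at -0.47 (adjusted p = 0.00676). The background over all genes with a value in the authors' deposited table was 0.241% higher and 0.254% lower. The same livers labelled DKO enter this comparison and the one above.

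Re-expression livers were also compared with control livers, to ask what remains different from the wild type. None of the 48 passed the test, with a background of 1.16% called higher and 0.663% lower. The median change was 0.12, against 0.01 over all tested genes, with 39 positive and 9 negative. With no adjustment, 12 members had p under 0.05 (background 12.5%), and voom on recovered reads called 2, Cbs and Kynu. On the deposited TPM scale, in 10 members the re-expression livers lay wholly above the control livers (background 4.29%): Cps1, Ass1, Arg1, Nags, Fah, Tdo2, Kynu, Mccc2, Cbs and Cdo1. In 0 members they lay wholly below (background 3%). Some margins were small. Re-expression liver 1 and control liver 3 had 1373 and 1372 TPM for Arg1, 2397 and 2394 TPM for Ass1 and 168 and 166 TPM for Cbs. Divided by the median-ratio factors, Cps1, Ass1, Arg1, Nags, Fah, Mccc2 and Cbs overlap, and Tdo2, Kynu and Cdo1 stay apart. The smallest adjusted p were 0.0565 for Cbs, at 0.44 ± 0.10 (SE), 0.0741 for Nags, at 0.42 ± 0.10, 0.0804 for Kynu, at 0.35 ± 0.09, and 0.0808 for Cdo1, at 0.30 ± 0.08. Cbs was called in 7 alternatives, among them without re-expression liver 1 (adjusted p = 0.0354) without control liver 3 (adjusted p = 0.0422) and with only control livers 1 and 2 (adjusted p = 0.0431), and Nags was called without re-expression liver 1 (adjusted p = 0.0447). This comparison shares the control livers with the first and the re-expression livers with the second.

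**Figure D5:**
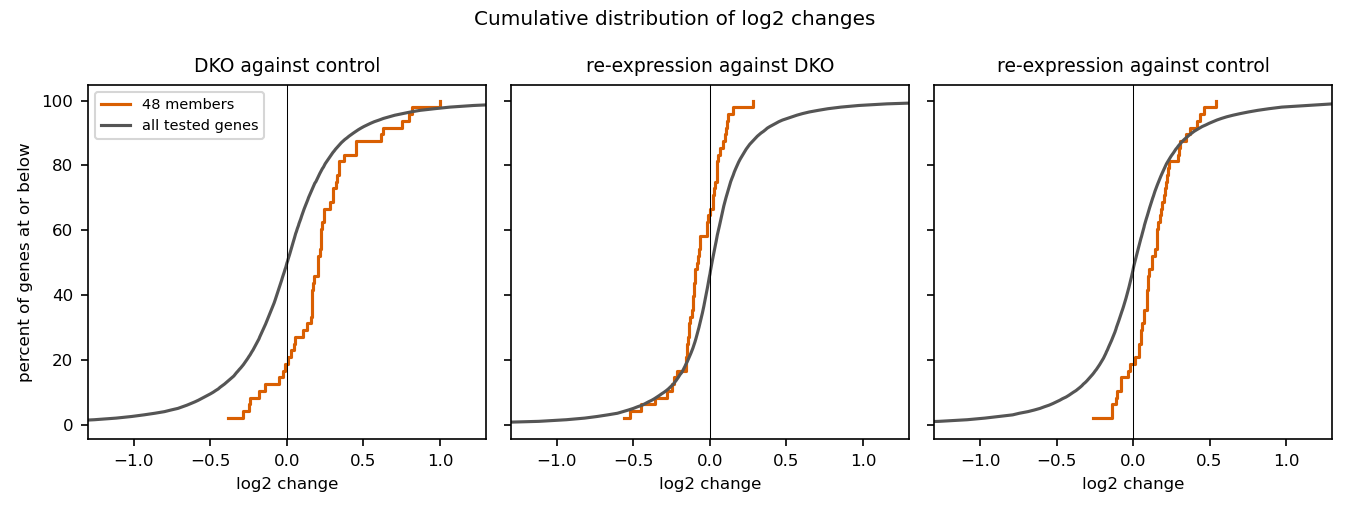
Cumulative percent of genes at or below each log2 change, for the 48 members (steps) and all 17957 tested genes (smooth line), in the 3 comparisons, on an axis narrower than the full range of all genes. In DKO against control the member line lies right of the line for all genes, at a median of 0.21 against 0.00, and in re-expression against DKO it lies left at a median of -0.08 against 0.01.

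Other genes of the same pathways were read from lists of 69 genes in the table, 64 of them tested. In livers labelled DKO against control livers 13 rose and 1 fell, with a median change of 0.16. The background over all tested genes was 2.99% called higher and 2.34% called lower. Ddc, the decarboxylase of aromatic amino acids, stood at 51.9, 87.6, 55 and 64.7 TPM in re-expression livers, 90.6, 70.6, 101 and 88.1 TPM in livers labelled DKO and 14.9, 32, 28.7 and 23.1 TPM in control livers. On the log2 scale Ddc differed by 1.83 ± 0.23 between livers labelled DKO and control livers (SE, adjusted p = 0.000811). In re-expression livers Agxt, the peroxisomal aminotransferase that removes glyoxylate, had 559, 602, 649.8 and 639 TPM, in livers labelled DKO 837, 774, 805 and 653 TPM and in control livers 298, 347, 447 and 449 TPM. The log2 change between livers labelled DKO and control livers was 1.01 ± 0.13 (SE, adjusted p = 0.00109). Those that rose included Ethe1 and Suox of sulfide and sulfite oxidation, the ornithine aminotransferase Oat, Pcca and Pccb of propionyl-CoA carboxylase, Acat1, Agxt2 and the electron transfer proteins Etfa and Etfdh. The log2 changes of the genes just named ran from 0.35 for Etfa to 1.12 for Ethe1. Kyat1, a kynurenine aminotransferase, fell by 0.69 to 120 ± 5.32 TPM in livers labelled DKO, against 194 ± 17.3 TPM in control livers (adjusted p = 0.00739). In re-expression livers, 0 of these genes were called against livers labelled DKO (background 0.0278% higher and 0.0446% lower). Against control livers 7 were called higher (background 1.16%), among them Oat, Ddc, Acat1, Pcca, Agxt and Agxt2.

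Regulators known to act on amino acid breakdown were followed too, as 17 genes of which 16 were tested (all but Gcg). In livers labelled DKO 3 fell and 0 rose, where the background was 2.34% called lower and 2.99% called higher. The levels of Ppara, the nuclear receptor of fasting metabolism, were 234, 192, 192 and 222 TPM in re-expression livers, 147, 167, 164 and 162 TPM in livers labelled DKO and 253, 268, 251 and 251 TPM in control livers. Ppara was lower in livers labelled DKO, with a log2 change of -0.67 ± 0.08 (SE) and an adjusted p of 0.000394. Nr1h4, the bile acid receptor FXR, fell by 0.52 (adjusted p = 0.0173), and Cebpa, a hepatocyte transcription factor, by 0.24 (adjusted p = 0.0430). Among those not called, Gcgr, Klf15, Hnf4a, Cebpb, Foxa1, Foxa2, Foxa3, Nr3c1, Ppargc1a, Creb3l3, Crtc2 and Creb1 had, among these 12, log2 changes from -0.59 for Ppargc1a (adjusted p = 0.112) to 0.19 for Klf15 (adjusted p = 0.678). No regulator was called in the other comparisons.

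Position along the liver lobule was read from zonation markers. Outside the members, 0 of 10 periportal genes were called in livers labelled DKO, with a median change of 0.00. Of 14 pericentral genes, Oat, Rgn, Lect2 and Cyp2c37 rose and Cyp7a1 fell (background 2.99% and 2.34%), with a median change of 0.11. Kidney tubule markers summed to at most 0.529 TPM in any liver, with Slc12a1 at 0 in all 12, and lymphocyte markers summed to 6.03 to 15.9 TPM. Red blood cell marker sums ran from 276 to 382 TPM in controls, from 400 to 686 TPM in DKO livers and from 372 to 835 TPM in re-expression livers. Against controls, all 5 genes had positive changes in DKO livers, with a median of 0.85 on the log2 scale and 0 called. Re-expression livers also had 5 positive changes against controls, with a median of 1.02 and 0 called. Unadjusted limma p was under 0.05 for 5 genes in the first case and 4 in the second. The part of red blood cells in the results was not tested.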

How the data were processed

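Total RNA of 12 whole livers went into a stranded library kit, per the labels' protocols. The build mm10 and the tools STAR 2.7.1a, featureCounts 2.0.1, DESeq2 1.36.0, SAMtools 1.9 and bcl2fastq 2.17 are named in the submitters' processing notes. Strand use at counting was not given in the sources used here. A gene model on the opposite strand overlaps 16 members, none of them among the 10 called: Nags, Gls2, Hpd, Hgd, Kmo, Afmid, Bckdha, Bckdhb, Bcat2, Mccc1, Hibch, Aldh6a1, Prodh, Ahcy, Bhmt and Csad.

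The TPM values were computed by the authors. The deposited table also held the authors' log2 fold changes and their adjusted p-values for 3 comparisons known by number alone. The first 2 were matched to groups by correlation over genes. The third followed none of the 3 group comparisons closely and was not used. Its correlation over genes was 0.155 with DKO against control, -0.520 with re-expression against DKO and -0.279 with re-expression against control.

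TPM is not a count, so log2(TPM + 1) was modelled by limma 3.58.1 (R 4.3.3), with 1 mean for each of 3 groups over all 12 libraries, a variance trend and two-sided tests, for genes averaging at least 1 TPM. A log2 change with a pseudocount of 1 understates the change of low genes. P-values were adjusted by Benjamini-Hochberg over the genes of each comparison, with a threshold of 0.05. Each TPM times the gene's length less 199 bases equalled a whole number of library-specific steps (tolerance 0.01 reads, 100% of values), which gave whole reads for depth and for 1 alternative with voom. Nr1d1 and Nr1d2 were compared with exact permutation tests. The labels call the livers biological replicates, and replicate livers differed by 4.59 to 15.6 chi-square per degree of freedom, more than sampling noise. The procedure was tested on simulated reads. The labels do not say that replicate numbers pair the livers, and the livers were treated as unpaired in the main fits.

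Members and lists were chosen with earlier results of these data known. Named genes were all 48 members, Nr1d1 and Nr1d2, called genes of the other pathway lists and tested regulators, except some that are counted but not reported here by name, and markers as sums. Ttr, Sox9 and the zonation genes were named after their values were seen. Names matched GENCODE release 21 for mouse for all 48 members and 47532 of 48537 genes. Alternatives were other pseudocounts, filters, scalings, quality weights, voom, a replicate block, the 8 livers of a comparison, subsets of control livers and each liver left out, 24 in all. Other software was Python 3.11.15, scipy 1.17.1 and matplotlib 3.10.9.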

Additional observations from a re-analysis of the deposited data

Results flagged for a closer look

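In 144 groups of 4 livers (48 genes in 3 groups), 13 held a liver whose gap to its nearest neighbour, as a share of the group's range, passed Dixon's 95% critical value. Chance flags about 1 in 20 groups. No explanation was tested.

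Re-expression liver 1 was the low liver in 5 of the 13 groups. Its Cbs stood at 168 TPM where the other re-expression livers had 202 to 209 TPM (share 0.844), and its Amdhd1 at 208 TPM where they had 254 to 261 TPM (share 0.891). Asl stood at 192 TPM against 251 to 265 TPM in the other re-expression livers (share 0.833), Gls2 at 191 TPM against 246 to 259 TPM (share 0.838) and Bckdha at 77.2 TPM against 98.1 to 102 TPM (share 0.870).

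In livers labelled DKO, liver 1 was high for Cbs at 324 TPM, with 278 to 282 TPM in the other livers labelled DKO (share 0.914). Afmid was high in liver 2 at 45.1 TPM, with 33.3 to 34.6 TPM in the others (share 0.877). Aldh4a1 was low in liver 4 at 114 TPM, with 132 to 134 TPM in the others (share 0.901).

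In control livers, Csad was low in liver 3 at 59.4 TPM, with 148 to 161 TPM in the other controls (share 0.915). Kynu was low in liver 4 at 72.6 TPM, with 90.5 to 92.8 TPM in the others (share 0.899), and Cps1 was high in liver 3 at 3312 TPM, with 3056 to 3087 TPM in the others (share 0.875). Control liver 1 was low for Nags at 39.5 TPM, with 46.5 to 47.6 TPM in the others (share 0.869), and for Gpt2 at 206 TPM, with 256 to 264 TPM in the others (share 0.871).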

How the results depend on the processing

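Over 24 alternatives for each of 48 genes, no called change turned its direction. Between livers labelled DKO and controls 52 of the settings of single genes lost a call and 9 gained one. Between re-expression livers and livers labelled DKO 4 gained one, and between re-expression livers and controls 9 did. The cause was not tested. Where the number of all genes called higher in a setting is not given below, the members called higher there have no background beside them.

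For livers labelled DKO against controls, the 8 livers of the comparison alone gave 4 members higher, with 328 of all genes higher and 231 lower. Only control livers 1 and 2 gave 644 genes lower and a member median of 0.28. Only control livers 3 and 4 gave 5 members higher, 182 genes lower and a median of 0.15. Leaving out each liver gave 4 to 10 members higher, 332 to 524 genes higher, 241 to 414 lower and medians of 0.145 to 0.246. With the replicate number as a block 9 members were higher.

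For re-expression livers against livers labelled DKO, genes called higher numbered 3 with a pseudocount of 5, 9 with the 8 livers, 8 with only control livers 1 and 2 and 11 with only control livers 3 and 4. The replicate block gave 3 higher and 5 lower. Quality weights gave 2 members lower, with 13 genes higher and 23 lower. Voom on recovered reads gave 2 members lower, with 12 genes higher and 22 lower. Leaving out each liver gave 1 to 7 genes higher and 4 to 8 lower.

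For re-expression livers against controls, 1 member was higher with a mean TPM of at least 5, with quantile normalization, with quality weights and with only control livers 1 and 2 (median 0.18), and 2 were with voom, which gave 234 genes lower. The replicate block gave 64 genes lower, the 8 livers gave 115 higher and 47 lower, and only control livers 3 and 4 gave 58 lower. Leaving out each liver gave 0 to 2 members higher, 125 to 203 genes higher, 50 to 129 lower and medians of 0.093 to 0.174.

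For Nr1d1, leaving out each liver gave 1.14 to 1.25 between re-expression livers and livers labelled DKO, and 1.39 to 1.51 between re-expression livers and controls, where 4 livers against 3 cannot go below an exact permutation p of 0.0571. Size factors moved the tyrosine sum of re-expression livers to 4405 TPM, against 4474 TPM as deposited. No scaling moved the median of all genes by over 0.1. Same-numbered livers deviated together with correlations of -0.07 to -0.02, -0.05 to -0.02 and 0.04 to 0.14 in the 3 comparisons. In the last, each liver correlated best with its own number, a hint from the data and not the design. In the first and in the second, 0 of 4 did. Bckdk had the fewest reads of the 48, 87 to 140 per liver.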
